A study of Homo sapiens with 8 samples.

Results

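The B7 ligands are cell-surface proteins of the immunoglobulin superfamily, and 8 of their genes were followed across the 4 groups of arrays: PDCD1LG2 (PD-L2), CD274 (PD-L1), CD276 (B7-H3), CD80 (B7-1), CD86 (B7-2), VTCN1 (B7-H4), ICOSLG (B7-H2) and HHLA2 (B7-H7). They were taken by gene symbol from the 20219 distinct symbols of the tested features, and each of the 8 was measured by 1 feature. The set was built around PDCD1LG2, which drew attention by its change with IL-13 in cells carrying the scrambled hairpin, while the other 7 were taken as its family. Values of that contrast are therefore given as a description without a test. For PDCD1LG2 itself, only the IL-13 difference within the knockdown cells is taken between arrays outside the contrast that singled it out, so it is the only one given with a p. Its standard error still draws on the spread of all 8 arrays, the choosing ones included.

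All samples were MIV-Luc cells, the luciferase-expressing form of MCF10CA1a, a metastatic human breast cancer line of the MCF10A progression series, stably transduced with a pLKO hairpin vector and selected as a pool. The 4 groups were MIV-Luc-shSCR (− IL-13), mock-treated with a scrambled hairpin, MIV-Luc-shSCR (+ IL-13), the same cells after 16 h in IL-13 at 20 ng/ml, MIV-Luc-shIL13Rα2 (− IL-13), mock-treated with a hairpin against IL13RA2, and MIV-Luc-shIL13Rα2 (+ IL-13), with hairpin and cytokine. Each group held 2 arrays, 8 in all, named A and B here by their order in the table, and each construct was represented by 1 hairpin. Hairpin, transduced pool and running array number went together. A knockdown difference therefore cannot be told apart from a difference between pools or by array order. Values are log2 expression after RMA, a background correction, quantile normalization and summary of the probes of a gene, so a log2 difference of 1 is a 2-fold change and levels of different genes are not on a common scale.

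B7 ligands are read by receptors on T cells. CD80 and CD86 on professional antigen-presenting cells engage CD28, which costimulates, and CTLA4, which inhibits. PD-L1 and PD-L2 bind the inhibitory receptor PD-1, the product of PDCD1, and ICOSLG binds ICOS. CD276 and VTCN1 are found on many epithelial tumors and mostly dampen T cell responses, and HHLA2 binds TMIGD2 and KIR3DL3. PD-L1 is a well-known target of interferon-gamma through IRF1, while PD-L2 is classically induced in macrophages and dendritic cells by IL-4 and IL-13 through STAT6. IL13Rα2, the target of the hairpin, binds IL-13 with high affinity and can act as a decoy for the signaling receptor formed by IL13RA1 and IL4R.

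The hairpin lowered its target, and the mean levels of basal epithelial and of leukocyte markers are given as a check of the cells. IL13RA2 was at 8.07 and 8.09 on the mock-treated shSCR arrays and at 6.52 and 6.34 on the mock-treated knockdown arrays, a log2 difference of -1.65 (standard error 0.11, adjusted p = 0.0105 from limma). With IL-13 it rose to 9.36 and 9.33 in shSCR cells (log2 difference 1.27, adjusted p = 0.0135 from limma) and to 8.23 and 8.15 in knockdown cells (1.76, adjusted p = 0.00264 from limma), so treated knockdown cells held about the level of mock-treated shSCR cells. The basal keratin KRT5 lay between 9.46 and 9.98 on all 8 arrays, and the mean over 14 features of 11 basal epithelial genes lay between 8.40 and 8.69. The lowest means, 8.48 and 8.40, were those of the IL-13-treated knockdown arrays. With IL-13 in shSCR cells 11 of the 14 features were lower, with a median log2 difference of -0.13 against 0.002 over all features. In knockdown cells 13 of the 14 were lower with IL-13, with a median of -0.14 against 0.016, so the lower values were not particular to the knockdown. Against mock-treated shSCR cells 13 of 14 were lower in treated knockdown cells, with a median of -0.22 against 0.006. The mean over 12 leukocyte markers lay between 4.21 and 4.34, and none of the 12 was called in any comparison. At most 0.154% of all features were called in any comparison, so a count of 0 in a short list says little about its genes. PTPRC, the pan-leukocyte marker CD45, was between 2.27 and 2.71.

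For the genes whose values are followed most closely, CD274 and VTCN1, the promoter was looked at in the RefSeq sequence table (GRCh38.p14), over the 250 bases before the annotated start. CD274 is shown because it lies next to PDCD1LG2 and VTCN1 because its values differed in the other direction with IL-13. Capitals mark matches to TTCNNNNGAA or TTCNNNGAA, the spacings bound by STAT factors, or to GAAANNGAAA, an interferon-response type of motif, on either strand. No entry for PDCD1LG2 was in the table.
CD274 (chr9:5450292-5450541, + strand): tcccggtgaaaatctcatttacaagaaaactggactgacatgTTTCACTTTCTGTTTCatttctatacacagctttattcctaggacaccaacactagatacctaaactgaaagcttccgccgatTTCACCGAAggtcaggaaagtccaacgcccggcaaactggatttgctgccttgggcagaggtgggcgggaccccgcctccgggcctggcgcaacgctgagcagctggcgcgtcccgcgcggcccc
VTCN1 (chr1:117210928-117211177, minus strand): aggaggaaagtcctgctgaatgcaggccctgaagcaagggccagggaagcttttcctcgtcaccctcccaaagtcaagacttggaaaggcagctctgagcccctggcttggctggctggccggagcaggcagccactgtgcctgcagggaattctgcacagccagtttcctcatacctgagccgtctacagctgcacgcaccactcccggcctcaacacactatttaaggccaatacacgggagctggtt

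The CD274 promoter held TTCACCGAA at 125 to 117 bases before the start, and a pair of overlapping GAAANNGAAA matches, written TTTCACTTTC and TTTCTGTTTC on the strand shown, between 208 and 193 bases before it. The VTCN1 promoter held none of these letters. Among 35114 promoters, 5.38% held TTCNNNNGAA, 6.57% held TTCNNNGAA and 3.02% held GAAANNGAAA. Of the 7 B7 ligand genes with a promoter in the table, CD274 alone held any match, and no promoter of the 7 held TTCNNNNGAA. These matches describe the letters only.

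PDCD1LG2 was high on every IL-13-treated array and low on every mock-treated one. In shSCR cells it was 5.62 and 5.67 without IL-13 and 7.39 and 7.26 with it. In knockdown cells it was 5.75 and 5.39 without IL-13 and 7.09 and 6.84 with it. The lowest of the 4 IL-13-treated arrays thus lay more than 1 log2 unit above the highest of the 4 mock-treated arrays. For the shSCR arrays this separation follows from the choice of the gene, so only the knockdown arrays add to it. The log2 difference with IL-13 was 1.68 in shSCR cells (standard error 0.15, 95% interval 1.33 to 2.03), a 3.21-fold change, and this is the contrast for which the gene was chosen. In knockdown cells, IL-13 raised PDCD1LG2 by 1.39 (standard error 0.15, 95% interval 1.04 to 1.74, adjusted p = 0.0343 from limma), a 2.63-fold change that ranked 15 of 29141 features by p. Of the 8 B7 genes it was the only one called there at an adjusted p under 0.05 and a fold change above 2, thresholds that 0.0618% of all tested features passed. The call rested on the spread shared over all 8 arrays. Without any one of them the adjusted p from limma was 0.0850 to 0.227 at differences of 1.21 to 1.57, and on the 4 knockdown arrays alone it was 0.214 at the same difference of 1.39.

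**Figure D1:**
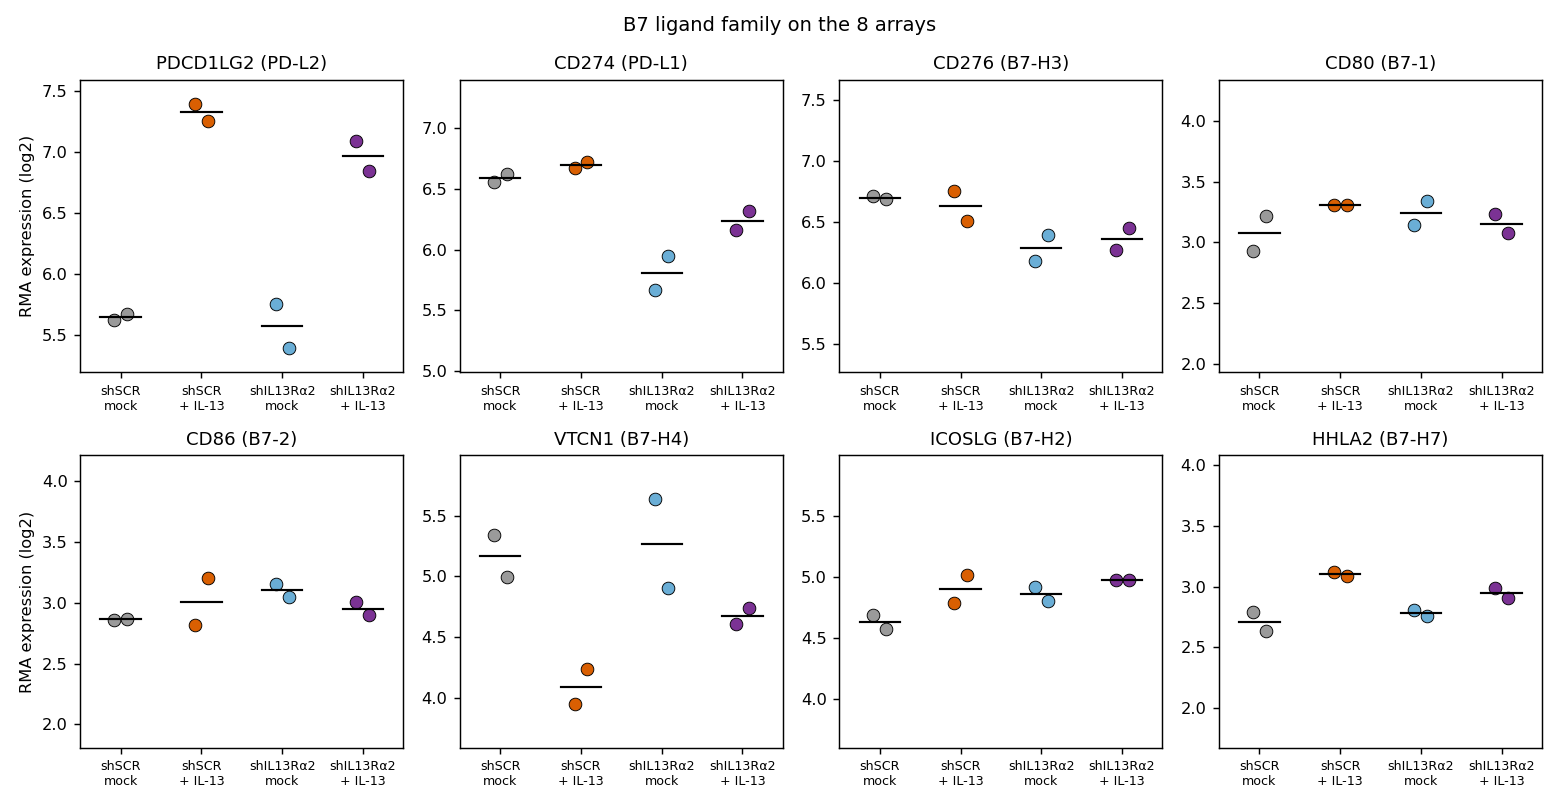
Log2 RMA expression (y axis, a window of the same height in every panel) of the 8 B7 ligand genes in the 4 groups (x axis). Each point is 1 array and each bar the mean of the 2 arrays of a group. PDCD1LG2 sat between 6.84 and 7.39 on the IL-13-treated arrays and between 5.39 and 5.75 on the mock-treated ones, CD274 was lower on all 4 knockdown arrays, and VTCN1 was lower with IL-13 with either construct.

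The order of the group levels of PDCD1LG2 was MIV-Luc-shSCR (+ IL-13) at 7.33 ± 0.10 (SD, n = 2), MIV-Luc-shIL13Rα2 (+ IL-13) at 6.96 ± 0.17 (SD, n = 2), MIV-Luc-shSCR (− IL-13) at 5.64 ± 0.04 (SD, n = 2) and MIV-Luc-shIL13Rα2 (− IL-13) at 5.57 ± 0.26 (SD, n = 2). The mock-treated groups overlapped, and their difference was -0.07 with a 95% interval from -0.42 to 0.28. The IL-13-treated groups did not overlap, and the knockdown arrays were lower by 0.36 (95% interval of the difference -0.71 to -0.011). Since PDCD1LG2 was chosen on the very arrays of shSCR cells with and without IL-13, every difference in this paragraph is a description only. The response to IL-13 differed between the constructs by -0.29 with a 95% interval from -0.78 to 0.21. Knockdown cells with IL-13 stood 1.32 above mock-treated shSCR cells (95% interval 0.97 to 1.67).

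CD274, which encodes PD-L1 and is the direct neighbor of PDCD1LG2 on chromosome 9, was lower on the arrays with the IL13RA2 hairpin and differed little with IL-13 in shSCR cells. It was 6.55 and 6.62 on the mock-treated shSCR arrays and 6.67 and 6.72 on the IL-13-treated shSCR arrays. On the knockdown arrays it was 5.67 and 5.94 without IL-13 and 6.16 and 6.32 with it. All 4 knockdown arrays lay below all 4 shSCR arrays. The share of all features that separate in this way is not given here, so this is a description only. The knockdown difference was -0.78 without IL-13 (95% interval -1.07 to -0.49, adjusted p = 0.140 from limma) and -0.46 among IL-13-treated cells (95% interval -0.75 to -0.16, adjusted p = 0.474 from limma), and neither was called. These comparisons share no array, but they share the transduced pools and the estimate of spread, so they do not replicate each other. Averaged over both treatments, a contrast added after these values were seen, it was -0.62 (standard error 0.09, 95% interval -0.83 to -0.41, adjusted p = 0.0373 from limma), passing the adjusted p, as did 0.446% of all features, but not the 2-fold threshold. Without any one of the 8 arrays the adjusted p from limma of this average was 0.0946 to 0.157, at differences of -0.69 to -0.55.

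With IL-13, CD274 differed by 0.11 in shSCR cells (95% interval -0.19 to 0.40). In knockdown cells it was higher with IL-13 by 0.43 (95% interval 0.13 to 0.72, adjusted p = 0.545 from limma), with arrays that did not overlap. Its upper limit there, 0.72, lay below the lower limit of PDCD1LG2 in the same cells, 1.04. The difference in response of CD274 between the constructs was not called (interaction 0.32, 95% interval -0.095 to 0.74, adjusted p = 0.989 from limma).

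The genes beside the pair were looked at because CD274 and PDCD1LG2 lie next to each other in the same stretch of chromosome 9. By the RefSeq order, PLGRKT, a plasminogen receptor, precedes CD274, and RIC1, a Golgi trafficking factor, follows PDCD1LG2, while JAK2, the kinase of many cytokine receptors, lies further out on the CD274 side. With IL-13, PLGRKT differed by -0.05 in shSCR cells and -0.21 in knockdown cells, RIC1 by 0.20 and -0.04, and JAK2 by 0.08 and 0.14. Over the 13 other genes between RCL1 and IL33 the differences with IL-13 ran from -0.61 to 0.34 in shSCR cells and from -0.23 to 0.14 in knockdown cells. In knockdown cells the lower limit for PDCD1LG2 lay above all of these values. None of the listed neighbors was called in any comparison, against at most 0.154% of all features.

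VTCN1, which encodes B7-H4, an inhibitory ligand of breast and other epithelial tumors, had lower values with IL-13 with either construct. It was 5.34 and 5.00 on the mock-treated shSCR arrays and 3.96 and 4.24 on the IL-13-treated shSCR arrays, a log2 difference of -1.07 (standard error 0.24, 95% interval -1.62 to -0.52) that is given without a test. Both treated values lay below the median of the negative-control features of their arrays, 4.21 and 4.30, so the size of this difference is uncertain. In knockdown cells it was 5.63 and 4.91 without IL-13 and 4.61 and 4.74 with it. There the arrays did not overlap either, but the mock-treated arrays were far apart, with a SD of 0.51, and the difference of -0.59 was not called (95% interval -1.14 to -0.041, adjusted p = 0.697 from limma). This difference was -0.23 without array A and -0.96 without array B of the mock-treated knockdown cells. The interaction of knockdown and IL-13 was 0.48 (95% interval -0.30 to 1.26, adjusted p = 0.989 from limma). The knockdown difference of VTCN1 was 0.10 without IL-13 (adjusted p = 0.929 from limma) and 0.58 among IL-13-treated cells (adjusted p = 0.684 from limma).

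CD276, the ligand B7-H3, showed values of the same direction as CD274 with the knockdown, at smaller size. It was 6.71 and 6.69 in mock-treated shSCR cells, 6.76 and 6.51 in IL-13-treated shSCR cells, 6.18 and 6.39 in mock-treated knockdown cells and 6.26 and 6.45 in IL-13-treated knockdown cells. All 4 knockdown arrays were below all 4 shSCR arrays, a description without the share of all features that separate in this way. The knockdown difference was -0.41 without IL-13 (95% interval -0.73 to -0.10, adjusted p = 0.421 from limma) and -0.28 with it (95% interval -0.59 to 0.035, adjusted p = 0.749 from limma). Its average over both treatments was -0.35 (adjusted p = 0.248 from limma), so no difference of CD276 was called. With IL-13 it differed by -0.07 in shSCR cells and 0.07 in knockdown cells.

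The remaining members stayed within 0.4 log2 units in every comparison. CD80 and CD86, the CD28 ligands of antigen-presenting cells, lay between 2.93 and 3.34 and between 2.82 and 3.20 on the 8 arrays. HHLA2 lay between 2.63 and 3.12 and was 0.39 higher with IL-13 in shSCR cells (95% interval 0.14 to 0.64) and 0.17 higher in knockdown cells (95% interval -0.083 to 0.41, adjusted p = 0.809 from limma). These 3 genes were below the median of the array's 2904 negative-control features, 4.12 to 4.38 per array, and fell into the dimmest 30% of features. The negative controls ran up to 9.41 to 9.74 at their 95th percentile, so they set no usable detection line, and whether the 3 genes were expressed at all cannot be told from these values. ICOSLG lay between 4.58 and 5.02 and was lowest in mock-treated shSCR cells, 0.34 below knockdown cells with IL-13 (95% interval of the difference 0.066 to 0.62, adjusted p = 0.430 from limma).

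**Figure D2:**
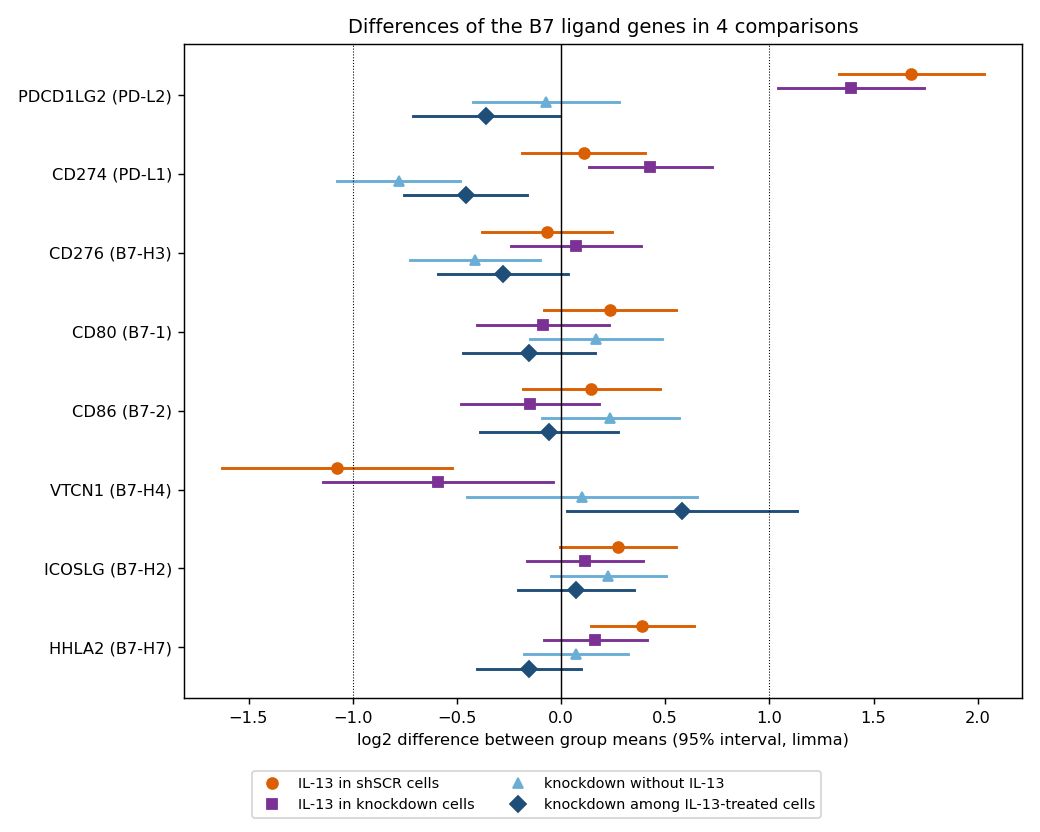
Log2 differences between group means (x axis, points with 95% intervals from limma) of the 8 B7 ligand genes in the IL-13 comparisons within each construct and the knockdown comparisons within each treatment. Dotted lines mark a 2-fold change. Beyond them lay PDCD1LG2 with IL-13, at 1.68 and 1.39, and VTCN1 with IL-13 in shSCR cells, at -1.07.

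Counted over the family, 1 member, PDCD1LG2, lay past both thresholds with IL-13 in shSCR cells, where 0.0583% of all features did, and between treated knockdown cells and mock-treated shSCR cells, where 0.154% did. Both comparisons hold arrays on which PDCD1LG2 was chosen, so these counts are descriptions and not tests of it. In shSCR cells with IL-13, 3 of 8 had an unadjusted limma p under 0.05 against 6.79% of features and 6 of 8 did not overlap against 36.7%, and nothing is read from these counts either. Between treated knockdown cells and mock-treated shSCR cells these counts were 4 of 8 against 9.56% and 7 of 8 against 40.3%. The knockdown without IL-13 called 0 of the 8 (background 0.0652%, or 0.0686% at the adjusted p alone), with 2 of 8 at an unadjusted limma p under 0.05 against 9.51% of all features and 0 by the methods' test with its fold threshold. The knockdown among IL-13-treated cells also called 0 (background 0.0515%, or 0.0549% at the adjusted p alone), with 3 of 8 at an unadjusted limma p under 0.05 against 7.07% of features and 0 by the methods' test with its fold threshold. PDCD1LG2 was among these 3, and among the 6 given below whose arrays did not overlap in this comparison. The knockdown comparisons, their average and the interaction also hold shSCR arrays on which PDCD1LG2 was chosen. Its part in their counts and medians is therefore a description, and nothing is read from it. Averaged over both treatments the knockdown called 0 of 8 past 2-fold, against 0.0755%. For the interaction 0 of 8 were called and 0 had an unadjusted limma p under 0.05, against 4.47% of features. Arrays of the compared groups did not overlap for 6 of 8 members with IL-13 in knockdown cells, against 37.4% of all features, for 4 of 8 with the knockdown alone, against 41.2%, and for 6 of 8 with the knockdown among IL-13-treated cells, against 36.4%. The median log2 difference of the 8 was 0.09 with IL-13 in knockdown cells, against 0.02 over all features, and 0.08 with the knockdown without IL-13, against -0.014. It was -0.15 with the knockdown among IL-13-treated cells, against 0.002, and -0.19 for the interaction, against 0.013.

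None of the receptors that read these ligands was called, against at most 0.154% of all features in any comparison. The list held 7 genes on 8 features, and their differences ran from -0.56 to 0.58 over all comparisons. At an unadjusted limma p under 0.05, 1 of the 8 features was lower with IL-13 in knockdown cells, against 6.93% of all features. With the knockdown among IL-13-treated cells 1 was higher and 1 lower, against 7.07%. PDCD1, the gene of PD-1, was lower by 0.39 with IL-13 in knockdown cells (log2 difference -0.39, adjusted p = 0.468 from limma). RGMB, a receptor-side partner of PD-L2 outside T cells, differed there by 0.33 (adjusted p = 0.762 from limma). Of the more distant B7-like and butyrophilin genes, 13 were measured on 14 features and 0 were called in any comparison, with 1 of 14 at an unadjusted limma p under 0.05 for IL-13 in knockdown cells against 6.93% of all features. Of 14 other checkpoint ligands, CEACAM1, a ligand of the receptor TIM-3, passed an adjusted p of 0.05, at -0.90 between treated knockdown cells and mock-treated shSCR cells (adjusted p = 0.0354 from limma), under the 2-fold threshold, where 0.285% of all features passed the adjusted p alone.

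The genes of the pathways known to drive PD-L2 and PD-L1 were looked at next. Apart from IL13RA2 itself, no gene of the 9 in the IL-13 receptor and JAK-STAT6 list was called, against at most 0.154% of all features in any comparison. The mRNA of STAT6, the factor through which IL-13 signals, differed with IL-13 by -0.01 in shSCR cells and by -0.06 in knockdown cells (adjusted p = 0.951 from limma). Such values do not show phosphorylation. The study reported by Western blot that IL-13 raised STAT6 phosphorylation in MIV cells, more so after the knockdown. Among 14 interferon-gamma response genes 0 were called, with 3 of 14 at an unadjusted limma p under 0.05 and higher with IL-13 in knockdown cells, against 6.93% of all features in either direction. IRF1, which acts on the CD274 promoter, was 4.02 and 3.56 in mock-treated shSCR cells and 4.71 and 4.45 with IL-13 (difference 0.79, adjusted p = 0.567 from limma), and in knockdown cells 3.74 and 3.97 without IL-13 and 4.54 and 3.96 with it (difference 0.39, adjusted p = 0.791 from limma). All 4 mock-treated values of IRF1, and 3.96 among the treated ones, lay below the negative-control median of their arrays, so these differences are uncertain in size. PSMB9, an interferon-inducible proteasome subunit named here after its value was seen, was higher by 0.85 with IL-13 in knockdown cells (adjusted p = 0.188 from limma). Of 8 genes whose products act on PD-L1 protein, such as CMTM6, 0 were called, against at most 0.154% of all features in any comparison. Their differences with IL-13 in knockdown cells ran from -0.15 to 0.05.

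The genes whose values most resembled PDCD1LG2 over the 8 arrays were ABCC2, CA2, SEMA3A, SERPINB4 and SERPINB3, taken from 139 symbols whose group means spanned at least 1 log2 unit. Pearson's r with PDCD1LG2 was 0.98 for ABCC2, a drug efflux transporter, 0.96 for CA2, a carbonic anhydrase, 0.96 for SEMA3A, a secreted guidance protein, and 0.95 for both SERPINB4 and SERPINB3, near-identical serpins that can share probe signal. The arrays of 1 group share their treatment, so these values describe a common split by IL-13 and carry no p. The log2 difference with IL-13 in knockdown cells was 1.48 for ABCC2, 1.46 for CA2, 0.99 for SEMA3A, 3.69 for SERPINB4 and 3.28 for SERPINB3. On the mock-treated arrays SERPINB3 was 0.78 and SERPINB4 was 1.01 higher in knockdown than in shSCR cells, while PDCD1LG2 differed by -0.07, CA2 by 0.014, ABCC2 by -0.19 and SEMA3A by -0.24.

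**Figure D3:**
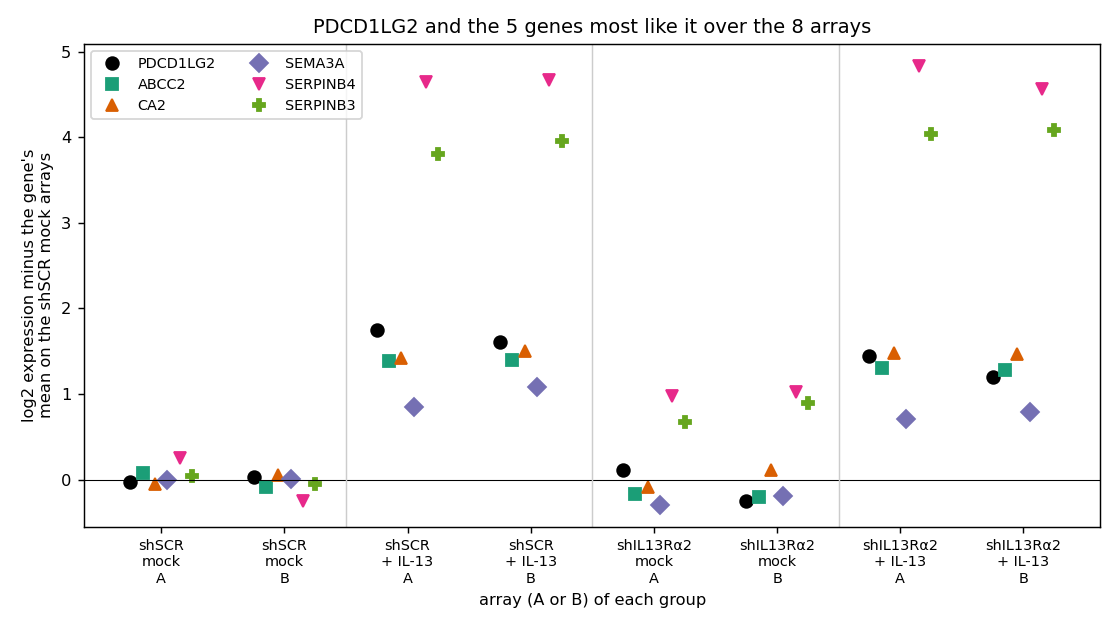
Log2 expression minus the gene's own mean on the mock-treated shSCR arrays (y axis) on each of the 8 arrays (x axis) for PDCD1LG2 and the 5 genes most like it. On the mock-treated knockdown arrays PDCD1LG2, ABCC2 and CA2 lay near 0, where SERPINB3 and SERPINB4 averaged 0.78 and 1.01.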

How the data were processed

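RNA of 4 groups was hybridized to 8 Affymetrix GeneChip arrays, with 2 biological replicates per group. The deposited table holds log2 values after RMA, which the authors computed at gene level with Affymetrix Expression Console version 1, per the labels. The headings name construct and treatment, which gave each column its group, but no replicate number. The table has 33297 features. After removal of 4156 controls and spike-ins, 29141 remained for testing, with no filter on signal.

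The fit had 1 mean per group over all 8 arrays and used limma (version 3.58.1, under R version 4.3.3, with 4 residual and 3.86 prior degrees of freedom), and p values were adjusted by Benjamini-Hochberg over all tested features. A gene was called at an adjusted p under 0.05 and a fold change above 2, or for the interaction at the adjusted p alone. Intervals are 95% intervals of that fit. The procedure was tested on simulated data. Precision is limited by the number of arrays.

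The B7 members and the gene lists (receptors, butyrophilins, IL-13 chain, interferon-gamma response, PD-L1 partners, other checkpoint ligands, chromosome 9 neighbors, leukocyte and basal markers) were chosen from general knowledge with earlier results of these data known. Features of one symbol with identical values were counted once. Beside the members, genes were named if a list member passed an adjusted p of 0.05, if fixed beforehand (IL13RA2, JAK2, PLGRKT, RIC1, STAT6, IRF1, PDCD1, RGMB), or as the 5 highest Pearson correlations with PDCD1LG2, and KRT5, PTPRC and PSMB9 were added after their values were seen. A list gene that the rule would name is not reported here. Tests of PDCD1LG2 had been planned in all comparisons but the IL-13 contrast of shSCR cells. They were replaced by intervals where arrays were shared with that contrast. Of the list genes, 110 of 111 were found by current symbol in RefSeq (GRCh38.p14), which was used for gene order and promoters. Older symbols stood in the table for some of them. Alternatives were the methods' test, by which is meant one-way analysis of variance within the arrays compared, limma on those arrays, no adjustment, other fold thresholds, leaving out the dimmest 30% of features, 2 further normalizations, a trend with robust prior and each array left out.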

Additional observations from a re-analysis of the deposited data

How the results depend on the processing

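The difference of PDCD1LG2 with IL-13 in knockdown cells was 1.38 to 1.39 under all alternatives with 8 arrays or with the 4 compared. It was called in 8 of 10 of them. Part of that count was fixed, since a lower or absent fold threshold, or limma without adjustment, can only keep a call. Calls that could have been lost came from leaving out dim features, 2 further normalizations and the trend with robust prior. In these the adjusted p from limma was 0.0012 to 0.0360. This difference was called by the methods' test only without adjustment. It was not called by the methods' test after adjustment (1.39, adjusted p = 0.780) or by limma on the 4 arrays compared (1.39, adjusted p = 0.214). In the other 8 the p ran from 1.76e-05, without adjustment, to 0.0360. Without single arrays it was 1.21 to 1.57 and not called. The count of B7 members called with IL-13 in knockdown cells, 1, accordingly became 0 under these settings and 0 without any one array. The next counts include PDCD1LG2 on arrays it was chosen on and are descriptions. In shSCR cells with IL-13 the count of 1 became 2, by the addition of VTCN1, under the methods' test and limma without adjustment, 0 under the adjusted methods' test and limma on the 4 arrays, and 0 to 1 with single arrays left out. For knockdown plus IL-13 against mock-treated shSCR cells the count of 1 became 0 under the adjusted methods' test and limma on the 4 arrays, and was 0 to 1 with single arrays left out. The counts of 0 for the knockdown comparisons and the interaction were 0 throughout. For CD274 with the knockdown without IL-13, at -0.78 and short of 2-fold, the adjusted p still depended on the setting. From limma it was 0.0194 with a trend and robust prior and 0.0679 with the dimmest 30% left out. By the methods' test after adjustment it was 0.6145.

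With single arrays left out, the knockdown difference of PDCD1LG2 without IL-13 ran from -0.25 to 0.11 and its interaction from -0.47 to -0.11. Uncalled differences near 0 changed sign without 1 array. These were CD276 with IL-13 in shSCR cells (-0.19 to 0.057) and in knockdown cells (-0.037 to 0.18), CD80 with IL-13 in knockdown cells (-0.19 to 0.013) and with both (-0.066 to 0.22), CD86 with IL-13 in shSCR cells (-0.050 to 0.34) and with the knockdown among IL-13-treated cells (-0.25 to 0.14), VTCN1 with the knockdown without IL-13 (-0.26 to 0.46), ICOSLG with the knockdown among IL-13-treated cells (-0.044 to 0.19) and HHLA2 with the knockdown without IL-13 (-0.0081 to 0.15). HHLA2 also changed sign, to -0.041, when the knockdown was averaged over both treatments. The further normalizations moved the median of all features by at most 0.014 on the log2 scale. The causes were not tested.

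No paired analysis was possible because the columns of the table carry no replicate numbers. CD80, CD86 and HHLA2 were not tested with the dimmest 30% of features left out.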
